A study of Caenorhabditis elegans with 8 samples.

Results

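The transcriptome of late Caenorhabditis elegans larvae was set against that of embryos in total RNA, over every gene and every editing-enriched region (EER) that was measured. The members were the samples labelled L3-L4 and embryo among the total RNA samples, 2 of 8 samples in the series, each deposited as 3 numbered columns of FPKM (reads per feature, scaled by feature length and by library size). All animals were wild type, strain Bristol N2, and the eggs came from hypochlorite treatment of well-fed cultures in S-Complete liquid medium. The embryo sample held mixed-stage embryos taken after washing. For the larvae, eggs hatched overnight without food at 20 °C and the animals were then fed to mid-L3 (28 to 30 h), to the L3/L4 molt (34 to 36 h) and to mid-L4 (40 to 42 h). These 3 populations were mixed in volumes of 5 parts L3, 5 parts L4 and 2 parts molting animals, so a larval column averages over feeding and molting animals of those ages. The 3 columns of a sample gave the spread. Nothing in the labels says whether they came from separate cultures, so the p-values below measure only the spread between these columns, which may be technical.

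An embryo of C. elegans starts from RNA loaded by the mother, turns on its own genes after the early divisions, and forms its tissues inside the eggshell before it lays down the cuticle of the hatchling. A larva in the last stages before adulthood feeds, grows, replaces its collagen cuticle at each molt under the control of the heterochronic (developmental timing) genes, builds the vulva and the gonad, and starts to make sperm. EERs are stretches of the genome where the study found clusters of adenosines edited by ADARs, the enzymes that turn adenosine into inosine in paired RNA, and so mark double-stranded RNA. RNA of whole animals was measured, so fewer cells of a type and less RNA per cell cannot be told apart.

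Stage markers were read as a check of the labels. Of 8 embryo markers, the endoderm GATA factor end-1 stood at 26.9, 15.2 and 16.9 FPKM in the embryo columns and at 0 in all L3-L4 columns. The germline gene nos-2 was at 23.03, 35.5 and 50.6 FPKM in embryos and at 0 in larvae, and the T-box gene tbx-37 at 9.89, 8.38 and 7.24 FPKM and 0. Further embryo markers were lower in larvae as well: pie-1 (log2 difference -3.21, adjusted p = 0.00116), hlh-1, the MyoD relative of body-wall muscle (-2.51, adjusted p = 0.00136), pos-1 (-6.63, adjusted p = 0.000262) and end-3 (-2.46, adjusted p = 0.00522), while med-2 had 1 read in all and was not tested. Among late larval markers, the strut collagen gene bli-1 went from 0 to 33.6, 44.6 and 66.4 FPKM and the molting protease gene nas-37 from 0 to 19.3, 10.4 and 24.9 FPKM. The molting gene mlt-10 was at 155, 103 and 101 against 43.8, 67.7 and 89.1 FPKM (log2 difference -0.86, adjusted p = 0.0566), not called, with each embryo column above each larval column. Of the other late larval markers, noah-1 was lower in larvae (log2 difference -1.83, adjusted p = 0.00762) and col-10 higher (4.76, adjusted p = 0.000235). Adult markers were near 0 in larvae: the adult collagen col-19 reached 2.23, 6.16 and 0 FPKM, against a mean of 818 FPKM in the young adults of the series, and the yolk protein gene vit-5 0.467, 0.772 and 1.75 FPKM, against 799.7 FPKM.

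Reads behind the values were few. Whole reads recovered from the FPKM steps gave 533509 to 781831 reads per embryo column and 586865 to 880018 per L3-L4 column, with a median of 89 reads per tested gene over all 6 columns. Log2 values correlated at 0.868 to 0.898 between columns of a stage and at 0.502 to 0.534 between stages. Squared differences between columns of a stage were 6.71 to 12.35 times those of counting noise (chi-square per degree of freedom). No column was taken as a duplicate of another. Intervals and floors given below cover counting error only.

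Of all tested genes, 46.6% differed between the stages. A gene was called when its adjusted p was under 0.05 and its difference at least 2-fold, a log2 difference of 1, in limma on log2(FPKM + 1) with Benjamini-Hochberg adjustment over genes and EERs together. Of 14109 genes tested, 2841 were higher in L3-L4 larvae (20.1%) and 3727 were lower (26.4%). At 4-fold or more, 1761 genes were higher (12.5%) and 1872 lower (13.3%). The balance of the counts depends on the scaling: with the columns brought to equal medians it became 3440 higher and 2926 lower, and after quantile normalisation 3139 and 3056, which turned the share of higher genes among the called from 43.3% into 54.0% and 50.7%. These scalings moved the median of all genes from -0.20 to 0.12 and 0.01 on the log2 scale, shifts of 0.31 and 0.21. The called genes include 616 with no read in embryos and 632 with no read in larvae, and 1460 of the tested genes reached 1 FPKM in columns of 1 stage only, so these could enter the test only by differing. Beside a list, the shares to read it against are 20.1% higher and 26.4% lower. Differences of low genes are understated on the log2(FPKM + 1) scale.

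**Figure D1:**
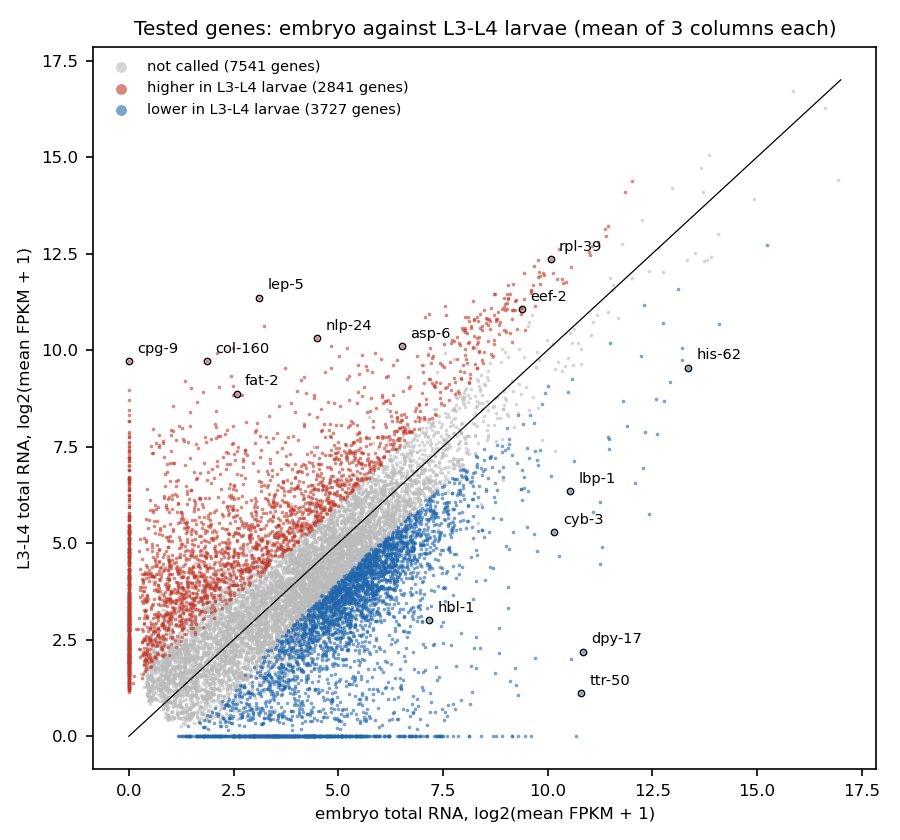
Each point is a tested gene, placed by the log2 of its mean FPKM plus 1 over the 3 embryo columns (x axis) and over the 3 L3-L4 columns (y axis), with red for the 2841 genes higher and blue for the 3727 genes lower in larvae and a line at equality. Genes read only in larvae stack at the left edge and genes read only in embryos along the bottom, with cpg-9 and ttr-50 far out on either side.

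The 10 genes that fell most included cuticle collagen, cuticlin, caveolin and Skp1-related genes. The gene ttr-50, a transthyretin-related gene, stood at 2086, 1542 and 1737 FPKM in the embryo columns and 1.39, 0 and 2.09 FPKM in the L3-L4 columns (1668-fold over the pooled reads, 95% counting interval 461 to 13784). The gene dpy-17, a cuticle collagen that sets body shape, was at 1371, 2092 and 2029 FPKM in the embryo columns and 5.05, 1.11 and 4.54 FPKM in the L3-L4 columns (log2 difference -8.77, SE 0.43, adjusted p = 3.33e-05). The gene cav-1, which encodes caveolin, a scaffold of membrane pits, was at 1603, 1615 and 1335 FPKM in the embryo columns and 2.18, 3.61 and 3.27 FPKM in the L3-L4 columns (log2 difference -8.57, SE 0.22, adjusted p = 7.9e-06). All 3 genes were above 1000 FPKM in each embryo column and below 6 FPKM in each larval column. The collagen dpy-14 fell from 527, 554 and 789 to 0, 0 and 3.27 FPKM (714-fold over the pooled reads, 95% counting interval 197 to 5903). The C-type lectin gene clec-266 went from 555, 848 and 405 to 0, 2.67 and 1.81 FPKM (437-fold over the pooled reads, 95% counting interval 149 to 2124). The gene mtre-1 went from 694, 631 and 457 to 1.82, 0 and 5.47 FPKM (287-fold over the pooled reads, 95% counting interval 97.7 to 1393). The gene cut-3, a cuticlin of the first cuticle, stood at 593, 625 and 433 against 1.78, 1.96 and 1.34 FPKM (log2 difference -7.67, SE 0.24, adjusted p = 1.12e-05). The Skp1-related gene skr-14, part of a family of ubiquitin-ligase adaptors, had 216, 201 and 216 FPKM in embryos and no read in larvae, at least 106-fold lower. Such bounds take 3 reads over the 3 columns as the most that a count of 0 allows. B0281.5 had 278, 196 and 216 FPKM and no larval read (at least 139-fold lower), and C01G6.3 stood at 1002, 938 and 553 against 2.93, 4.05 and 2.2001 FPKM (log2 difference -7.66, SE 0.30, adjusted p = 1.8e-05).

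The 10 genes that rose most included 3 collagens and 3 fipr genes, and 6 of the 10 had no read in embryos. The gene cpg-9, a chondroitin proteoglycan gene, went from 0 to 1301, 483 and 747 FPKM, at least 240.2-fold higher. The collagen col-147 went from 0 to 690.3, 391 and 417 FPKM (at least 322-fold) and col-73 from 0 to 162, 487 and 305 FPKM (at least 205-fold). The gene lep-5, a long noncoding RNA of the timing pathway, was at 2.24, 7.58 and 13.1 FPKM in the embryo columns and 2779, 3000.3 and 2106 FPKM in the L3-L4 columns (log2 difference 8.47, SE 0.51, adjusted p = 5.69e-05). The gene far-2, a fatty acid and retinol binding protein gene, was at 1.66, 0 and 12.2 FPKM in the embryo columns and 964, 1169 and 1043 FPKM in the L3-L4 columns (log2 difference 8.34, SE 0.83, adjusted p = 0.000316). The collagen col-160 was at 0, 1.29 and 6.70 against 1067, 789 and 673 FPKM (log2 difference 8.31, SE 0.68, adjusted p = 0.000148). Of the 10, 3 belong to the fipr family of small peptides: fipr-10 went from 0 to 535, 462 and 249.9 FPKM (at least 65.6-fold), fipr-6 from 0 to 261, 661 and 122.8 FPKM (at least 54.4-fold) and fipr-7 from 1 read in all embryo columns to 741, 677 and 358 FPKM (343-fold over the pooled reads, 95% counting interval 61.2 to 13584). How reads that match several members of such a family were counted is not given in the sources used here, so their single values are uncertain. T04F8.8 went from 0 to 415, 288 and 160.2 FPKM (at least 132-fold).

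Maternal RNA-binding proteins, which hold maternal messages silent and set up the germ line, were lower in larvae for 20 of 30 genes tested and higher for 2 (4 with equal medians, quantile normalisation or voom, and 1, 1 and 4 without embryo column 1, 2 or 3 and 1, 2 and 1 without L3-L4 column 1, 2 or 3), with a median log2 difference of -2.51 against -0.20 over all genes. The gene pos-1, a zinc-finger protein of the early germ lineage, stood at 253, 393 and 216 FPKM in the embryo columns and 3.05, 4.48 and 0 FPKM in the L3-L4 columns (log2 difference -6.63, SE 0.63, adjusted p = 0.000262). The gene spn-4, an RNA-binding protein of early cell fate, was at 128, 179.8 and 158 against 11.8, 11.4 and 14.4 FPKM (log2 difference -3.52, SE 0.22, adjusted p = 6.55e-05). Both mex-5 (-3.88) and oma-1 (-4.002), which act at the passage from oocyte to embryo, fell as well. The list was not uniform, and 5 of the 30 reached the minimum in columns of 1 stage only. The gene cgh-1, a DEAD-box helicase of germ granules, had 83.0, 119.2 and 147 against 141, 118.5 and 124 FPKM and overlapped between the stages (log2 difference 0.17, adjusted p = 0.595). The gene glh-1, the Vasa helicase that marks germ cells at every stage, rose from 8.99, 14.7 and 13.9 to 146, 92.1 and 155 FPKM (log2 difference 3.28, SE 0.30, adjusted p = 0.000223). In the young adults of the series pos-1 had a mean of 131 FPKM and spn-4 one of 165 FPKM.

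Regulators of embryonic cell fate were lower for 32 of 36 genes tested. None was higher, in limma at an unadjusted p under 0.05 (0 genes) or in voom (0 genes). The 4 not called were elt-3, php-3, mab-5 and elt-2, the GATA factor that keeps intestinal genes on, at 23.7, 17.5 and 19.1 against 10.9, 13.6 and 17.4 FPKM (log2 difference -0.51, adjusted p = 0.184). Of the 36, 13 reached the minimum level in columns of 1 stage only, and 16 of the 40 in the table had no larval read. The gene pal-1, the Caudal relative of posterior cells, was at 60.8, 64.4 and 76.5 FPKM in the embryo columns and 5.91, 3.72 and 1.26 FPKM in the L3-L4 columns (log2 difference -4.02, SE 0.43, adjusted p = 0.000436). The bZIP factor skn-1, which starts the endoderm and mesoderm and later runs a stress response, was at 145, 149.8 and 131 against 58.6, 42.3 and 45.2 FPKM (log2 difference -1.54, SE 0.20, adjusted p = 0.000987). The gene unc-120, an SRF-type muscle factor, was at 76.4, 74.3 and 87.0 against 32.04, 31.2 and 26.8 FPKM (log2 difference -1.37, SE 0.20, adjusted p = 0.00135). The gene pha-4, the FoxA factor of the pharynx, was at 32.1, 23.6 and 39.6 against 5.51, 3.31 and 5.25 FPKM (log2 difference -2.52, SE 0.33, adjusted p = 0.00101). Both skn-1 and unc-120 were read in every larval column above 26 FPKM, and pal-1 stayed under 6 FPKM in each.

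Genes of the cell cycle and of DNA replication were lower for 50 of 57 tested, with a median log2 difference of -2.17. In limma 0 were higher, also at an unadjusted p under 0.05, and in voom 0. The 57 genes reached the minimum in both stages. The cyclin B gene cyb-3 was at 1074, 1474 and 888 FPKM in the embryo columns and 42.1, 27.5 and 44.4 FPKM in the L3-L4 columns (log2 difference -4.87, SE 0.28, adjusted p = 4.81e-05). The gene cyb-1, another cyclin B, was at 324, 524 and 242 against 22.2, 10.3 and 13.9 FPKM (log2 difference -4.46, SE 0.37, adjusted p = 0.000163). The gene rnr-2, the small subunit of ribonucleotide reductase, was at 551, 679.9 and 504 against 33.5, 44.1 and 36.7 FPKM (log2 difference -3.89, SE 0.21, adjusted p = 3.94e-05). Each embryo column was above each larval column for the 3 genes. The replicative helicase gene mcm-7 (-3.43) and the kinase genes cdk-1 (-2.77) and plk-1 (-1.996) fell too. Summed over the 57 genes the level was 5840 to 8095 FPKM in the embryo columns and 840.5 to 1069 FPKM in the larval columns.

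Core and linker histones were lower for 32 of 40 tested and higher for 3, with a median of -3.73, while 36 further entries of the list had no match in the table. The gene his-62 stood at 11678, 11822 and 7770.3 FPKM in the embryo columns and 939, 561 and 739 FPKM in the L3-L4 columns (log2 difference -3.81, SE 0.36, adjusted p = 0.00026). The gene his-64 was at 12426, 29419 and 10217 against 2559, 739 and 1567 FPKM (log2 difference -3.43, SE 0.63, adjusted p = 0.00389). The gene his-60 was at 5442, 17726 and 5125 against 1300.1, 754 and 1159 FPKM (log2 difference -2.92, SE 0.55, adjusted p = 0.00447). Embryo column 2 was more than 2-fold above the other embryo columns for his-64 and his-60, and for his-62 it was level with column 1. The linker histone gene his-24 fell too (-4.39). The gene his-35 rose from 40.3, 56.9 and 44.3 to 76.1, 111 and 107 FPKM (log2 difference 1.04, SE 0.24, adjusted p = 0.0104, call lost without embryo column 1 or L3-L4 column 2 or 3 with a log2 difference down to 0.93). Histone genes are near-identical copies in clusters, so the split of reads among them is uncertain and the sum is the safer figure: 92745 to 180133 FPKM in embryos and 7316 to 10860 FPKM in larvae. Most of their messages have no poly(A) tail, and the libraries were made from total RNA.

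Epithelial junctions and basement membranes, which hold the embryo's cell sheets together, were lower for 16 of 28 genes tested and higher for 1 (0, 0 and 1 without embryo column 1, 2 or 3 and 0, 1 and 0 without L3-L4 column 1, 2 or 3 were higher). With any 1 column left out, 15 to 17 were lower. With equal medians 13 were lower and after quantile normalisation 13, and the median log2 difference of the list moved from -1.165 to -0.855 and -0.897. The cadherin hmr-1 (-2.47) and the alpha-catenin hmp-1 (-1.98) fell, and lam-1, a laminin beta chain, went from 289, 237 and 282 to 94.6, 93.6 and 115 FPKM (log2 difference -1.40, SE 0.19, adjusted p = 0.00115). The type IV collagen genes were not called: emb-9 was at 398, 388 and 491 against 514, 385 and 405 FPKM (log2 difference 0.03, adjusted p = 0.93). The gene let-2 was at 211, 311 and 398 against 302, 370.0 and 327 FPKM (0.16, adjusted p = 0.649), with all 6 columns of either gene within 2-fold of each other. The gene mua-3, which ties epidermis to cuticle over muscle, was at 23.99, 20.4 and 28.95 against 64.04, 35.6 and 79.5 FPKM (log2 difference 1.195, SE 0.33, adjusted p = 0.0214, call lost without embryo column 1 or 2 or L3-L4 column 1 or 3 with adjusted p up to 0.0823). Among genes of vulva and gonad morphogenesis, 16 of 33 were lower and 1 was higher (1, 1 and 2 without embryo column 1, 2 or 3 and 1, 1 and 1 without L3-L4 column 1, 2 or 3 were higher). With equal medians 4 were higher and 13 lower, after quantile normalisation 2 and 14, and with voom 4 and 18. The Notch receptor gene lin-12 fell (-3.08), as did the integrin alpha gene ina-1, from 122, 99.7 and 112.2 to 26.5, 20.1 and 28.6 FPKM (log2 difference -2.12, SE 0.22, adjusted p = 0.000376). The gene him-4, the hemicentin of the extracellular matrix, rose from 23.3, 14.9 and 18.9 to 51.8, 56.04 and 57.1 FPKM (log2 difference 1.503, SE 0.24, adjusted p = 0.0021). The gene mig-6, the papilin of the basement membrane, was at 166, 189 and 215 against 166, 163 and 138 FPKM (-0.28, adjusted p = 0.268). The gene nid-1, nidogen, was at 127, 77.7 and 125.1 against 36.4, 61.2 and 77.7 FPKM (-0.93, adjusted p = 0.0554). Tubulins gave 4 higher and 4 lower of 16, near the shares over all genes, and 4 and 2 with equal medians. The higher count was 2, 3 and 3 without embryo column 1, 2 or 3 and 2, 3 and 4 without L3-L4 column 1, 2 or 3, and the lower count 4, 2 and 2 without embryo column 1, 2 or 3 and 3, 4 and 3 without L3-L4 column 1, 2 or 3. The abundant tbb-2 (-0.59, adjusted p = 0.264), tba-2 (-0.68, adjusted p = 0.0741) and tbb-1 (-0.50, adjusted p = 0.231) were not called. The gene tba-1 was at 273, 470.3 and 582 against 148, 245 and 162 FPKM (log2 difference -1.22, SE 0.34, adjusted p = 0.0213, call lost without embryo column 2 or 3 or L3-L4 column 1 or 3 with adjusted p up to 0.0827, call lost with equal medians at adjusted p = 0.0693). The gene tba-4 rose from 14.8, 10.5 and 6.79 to 271, 173 and 243 FPKM (log2 difference 4.33, SE 0.32, adjusted p = 0.000104).

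F-box and MATH-domain proteins, substrate adaptors of ubiquitin ligases that form very large families in this worm, were lower for 146 of 294 genes tested and higher for 51. Of the 294, 126 reached the minimum in columns of 1 stage only. The gene bath-42 was at 159, 139 and 103 against 33.9, 23.5 and 19.9 FPKM (log2 difference -2.34, SE 0.28, adjusted p = 0.000622). The gene bath-36 was at 69.9, 166 and 84.0 against 229, 152.4 and 110.03 FPKM (0.65, adjusted p = 0.214), with overlapping columns. The gene math-33, a ubiquitin-specific protease, was at 83.0, 120.3 and 75.3 against 58.4, 47.4 and 66.1 FPKM (-0.67, adjusted p = 0.0608). On the other side, fbxa-72 had 3 reads in embryos and 167, 67.3 and 55.5 FPKM in larvae (78.3-fold over the pooled reads, 95% counting interval 26.5 to 382).

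Of 16 collagens of body shape and struts tested, 12 were higher and 3 lower. Those 3 were the abundant embryonic ones: dpy-17 and dpy-14, given above, and sqt-3, at 615, 759 and 1325 FPKM in the embryo columns and 92.5, 187 and 226 FPKM in the L3-L4 columns (log2 difference -2.43, SE 0.42, adjusted p = 0.00305). In contrast rol-6 had no embryo read and 90.8, 93.7 and 74.7 FPKM in larvae (at least 68.3-fold higher), sqt-1 none and 58.8, 116 and 71.8 FPKM (at least 57.6-fold), and bli-2 1 read and 196, 125.4 and 221 FPKM (346-fold over the pooled reads, 95% counting interval 61.7 to 13689). The collagen dpy-5 was at 2.85, 1.61 and 4.17 against 120.1, 354.2 and 149.7 FPKM (log2 difference 5.64, SE 0.46, adjusted p = 0.000149). Of the 16, 7 reached the minimum in columns of 1 stage only. In the col family 65 of 111 tested were higher and 11 lower, with a median of 2.44. Of the 111, 30 reached the minimum in columns of 1 stage only. The gene col-10 was at 30.5, 25.5 and 52.6 against 559, 1657 and 961 FPKM (log2 difference 4.76, SE 0.44, adjusted p = 0.000235). The gene col-125 was at 35.2, 22.9 and 81.3 against 560.4, 1376 and 853 FPKM (log2 difference 4.39, SE 0.51, adjusted p = 0.000578). The most abundant of the lower members, col-74, stood at 500.3, 491 and 370.1 against 0, 5.76 and 4.69 FPKM (log2 difference -7.06, SE 0.69, adjusted p = 0.000296). Summed over the 153 genes in the table, the col family held 1961 to 2632 FPKM in embryos and 11448 to 16279 FPKM in larvae.

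Furrow collagens, which mark the ring-shaped furrows of the cuticle, gave 3 lower and 2 higher of 6. The gene dpy-2 was at 395, 364 and 325 against 135, 33.98 and 189 FPKM (log2 difference -1.90, SE 0.58, adjusted p = 0.0309, call lost without embryo column 1, 2 or 3 or L3-L4 column 1 with adjusted p up to 0.106, call lost with equal medians at adjusted p = 0.0564). The gene dpy-10 was at 381, 339.6 and 325 against 128, 37.1 and 184 FPKM (log2 difference -1.85, SE 0.54, adjusted p = 0.026, call lost without embryo column 1, 2 or 3 or L3-L4 column 1 with adjusted p up to 0.0938). The gene dpy-7 was at 344, 280.4 and 294 against 129.6, 51.2 and 161 FPKM (log2 difference -1.56, SE 0.41, adjusted p = 0.0175, call lost without embryo column 1, 2 or 3 with adjusted p up to 0.0719). The lower count was 0, 0 and 0 without embryo column 1, 2 or 3 and 1, 3 and 3 without L3-L4 column 1, 2 or 3. The gene dpy-9 rose from 8.31, 8.05 and 6.96 to 283, 54.7 and 316 FPKM (log2 difference 4.29, SE 0.64, adjusted p = 0.0016), and dpy-8 from 2 reads to 42.3, 44.4 and 101 FPKM (95.7-fold over the pooled reads, 95% counting interval 26.2 to 796). For dpy-2, dpy-10, dpy-7 and dpy-9, L3-L4 column 2 was the lowest larval column. The same column was the highest for col-10, col-125, dpy-5 and dpy-13 (43.8, 319 and 190.3 FPKM), so the larval columns differed in their collagen makeup.

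**Figure D2:**
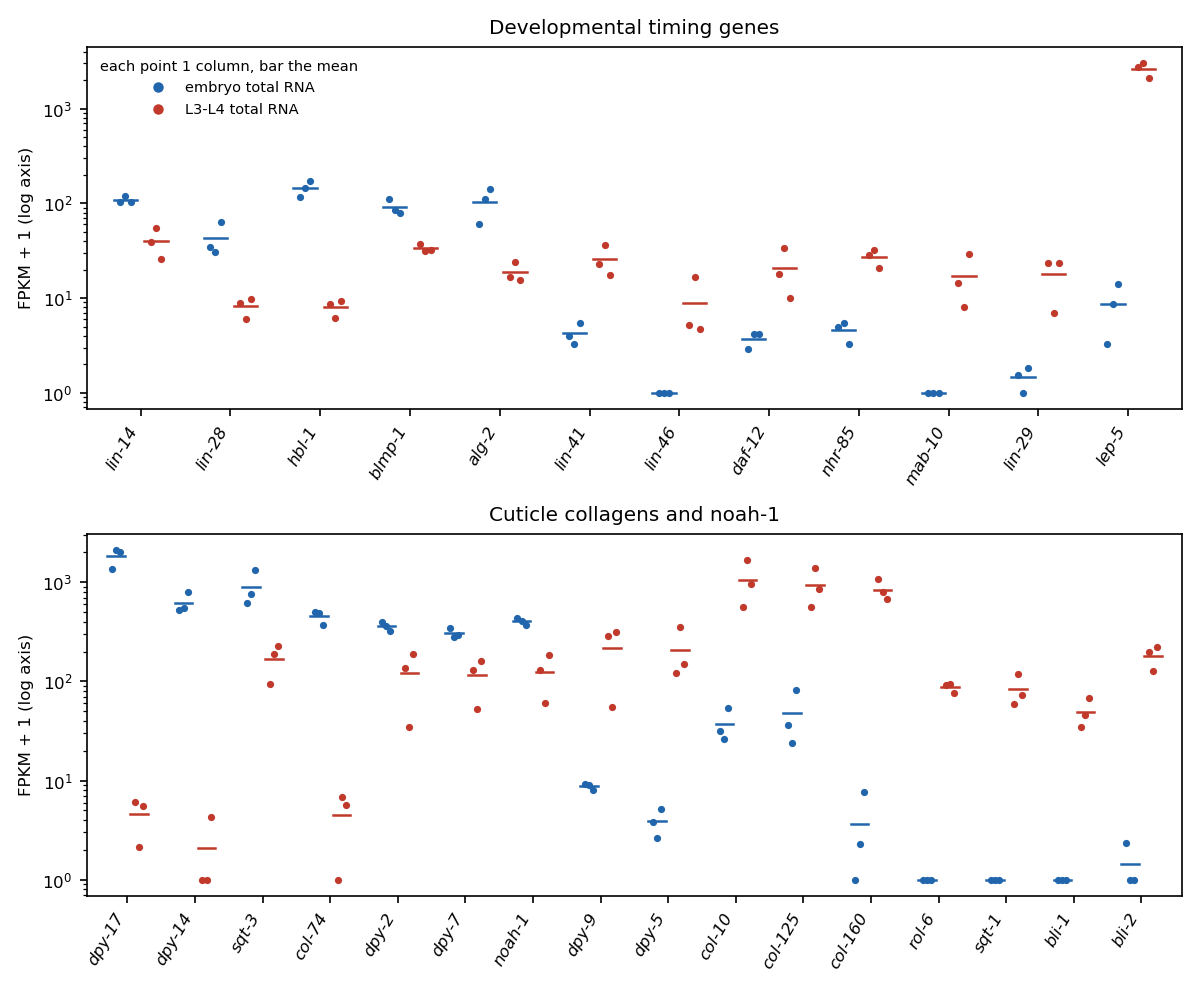
FPKM plus 1 on a log axis for developmental timing genes (upper panel) and cuticle genes (lower panel), with 1 point per column, blue for embryo and red for L3-L4 total RNA, and bars at the mean. In embryos, lin-14, lin-28 and hbl-1 lie above their larval points and lin-41, lin-29 and lep-5 below them, and dpy-17 and bli-2 exchange places between the stages.

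Molting enzymes and apical matrix genes were mixed, with 4 of 36 higher and 9 lower (8 and 7 with equal medians, 8 and 8 after quantile normalisation). The gene noah-1, a zona pellucida protein of the embryonic and molting apical matrix, was at 438, 407 and 369 against 129, 60.1 and 185 FPKM (log2 difference -1.83, SE 0.39, adjusted p = 0.00762). The gene noah-2 was at 346, 301 and 393 against 109, 66.5 and 151 FPKM (log2 difference -1.73, SE 0.31, adjusted p = 0.00375). The gene pdi-2, the disulfide isomerase that also serves collagen hydroxylation, overlapped, with 666, 649.7 and 1338 against 485, 999.6 and 1074 FPKM (-0.05, adjusted p = 0.93). The peroxidase gene mlt-7 rose from 5.95, 4.48 and 2.91 to 98.3, 102 and 23.8 FPKM (log2 difference 3.58, SE 0.58, adjusted p = 0.00241), and so did the astacin protease genes nas-36 (2.58) and nas-38 (2.80), which like nas-37 cut the old cuticle at a molt.

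The heterochronic genes, which give each larval stage its identity, are described here with other timing and molt regulators. Of 24 timing and molt regulators tested, 8 were higher and 9 lower (8 and 8 with equal medians or quantile normalisation), and with any 1 column left out the counts were again 8 and 9. Several of the genes named next were picked after their values were seen. The gene lin-14, which acts early in larval timing, was at 102, 117 and 103 FPKM in the embryo columns and 38.4, 53.5 and 24.8 FPKM in the L3-L4 columns (log2 difference -1.51, SE 0.29, adjusted p = 0.00505), and hbl-1 at 117, 143 and 172 FPKM in the embryo columns and 7.59, 5.19 and 8.24 FPKM in the L3-L4 columns (log2 difference -4.18, SE 0.26, adjusted p = 6.46e-05). The gene lin-28 was at 33.9, 29.9 and 62.6 against 7.85, 5.05 and 8.82 FPKM (log2 difference -2.34, SE 0.37, adjusted p = 0.00209). In each of these the lowest embryo column lay above the highest larval column. The gene lin-41, a target of the let-7 microRNA, was at 3.004, 2.26 and 4.40 against 21.9, 35.3 and 16.45 FPKM (log2 difference 2.56, SE 0.40, adjusted p = 0.00198). The gene lin-29, which switches the epidermis to its adult fate, was at 0.555, 0 and 0.814 against 22.2, 5.99 and 22.2 FPKM (38.1-fold over the pooled reads, 95% counting interval 10.2 to 319.8). The gene mab-10, the partner of lin-29, went from 0 to 13.5, 7.11 and 28.04 FPKM (at least 17.7-fold), and lin-46, which acts below lin-28, from 0 to 4.15, 15.6 and 3.73 FPKM (at least 7.39-fold). The nuclear receptor genes daf-12 (2.31) and nhr-85 (2.58) rose, and the transcription factor gene blmp-1 (-1.44) and the microRNA Argonaute gene alg-2 (-2.41) fell. L3-L4 column 2 was the highest of the larval columns for lin-46 and daf-12 and the lowest for lin-29 and mab-10. The gene lep-5 was the most abundant of the list in larvae. In the L1-L2 larvae of the series its mean was 40.2 FPKM and in young adults 1157 FPKM.

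Hedgehog-related proteins, secreted proteins made largely by epidermis, gave 8 higher and 11 lower of 35 tested, or 10 and 10 with equal medians. The gene wrt-1 fell from 254, 211 and 152.1 to 30.02, 20.5 and 53.6 FPKM (log2 difference -2.61, SE 0.37, adjusted p = 0.00137). The gene wrt-10 was at 246, 178 and 149 against 147, 57.8 and 167 FPKM (-0.73, adjusted p = 0.198). The gene grd-10 rose from 11.8, 2.66 and 3.45 to 338, 355 and 144 FPKM (log2 difference 5.46, SE 0.56, adjusted p = 0.000353). The gene grd-5 went from 127, 144 and 100.3 to 341, 328 and 241 FPKM (log2 difference 1.29, SE 0.23, adjusted p = 0.00369). Also, grl-21 rose (322-fold over the pooled reads, 95% counting interval 57.4 to 12744), and grd-3 went from no read to 47.5, 59.6 and 46.7 FPKM. Patched-related membrane proteins gave 5 higher and 7 lower of 26, or 5 and 5 with equal medians. The shares of the Hedgehog-related genes (22.9% higher and 31.4% lower) and of the Patched-related genes (19.2% and 26.9%) were near those over all genes (20.1% and 26.4%). The gene ptr-25 fell from 82.1, 114 and 100.02 to 5.72, 5.05 and 5.58 FPKM (log2 difference -3.94, SE 0.24, adjusted p = 5.68e-05), and ptr-14 rose from 24.1, 11.6 and 20.9 to 74.8, 49.8 and 66.5 FPKM (log2 difference 1.74, SE 0.32, adjusted p = 0.00413). The gene ptr-4 was at 159.8, 104.1 and 117 against 60.1, 22.9 and 66.6 FPKM (log2 difference -1.45, SE 0.42, adjusted p = 0.0246, call lost without embryo column 1, 2 or 3 or L3-L4 column 2 with adjusted p up to 0.099, call lost with equal medians at adjusted p = 0.0532). The gene ptc-3, a Patched relative needed in the epidermis, was at 66.1, 76.9 and 104.4 against 34.2, 45.8 and 50.1 FPKM (-0.90, adjusted p = 0.0229).

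Of 43 muscle sarcomere genes tested 19 were higher and 4 lower, or 22 and 1 with equal medians and 19 and 2 after quantile normalisation. The gene unc-54, the main myosin heavy chain of the body wall, was at 84.5, 109 and 157 FPKM in the embryo columns and 894, 1089 and 798 FPKM in the L3-L4 columns (log2 difference 3.01, SE 0.28, adjusted p = 0.000233). The myosin light chain gene mlc-1 was at 354.2, 292 and 312 against 1503, 897 and 1441 FPKM (log2 difference 1.97, SE 0.27, adjusted p = 0.00115). The related mlc-2 was at 327, 331 and 316 against 1412, 1038 and 1101 FPKM (log2 difference 1.85, SE 0.22, adjusted p = 0.000619), and reads that match both genes are uncertain. The pharyngeal myosin myo-2 rose from 5.41, 6.73 and 9.26 to 32.4, 64.7 and 19.5 FPKM (log2 difference 2.16, SE 0.46, adjusted p = 0.00735). The troponin T gene tnt-2 (5.07) and the giant kinase gene unc-22 (2.42) rose too. The gene myo-3, the minor body-wall myosin that starts the thick filament, was at 57.99, 71.7 and 63.01 against 103.7, 102 and 87.1 FPKM (0.60, adjusted p = 0.0352). The 4 lower genes were pat-3, the beta integrin (-1.41), pat-4 and pat-6 of the same attachment complex, and act-2. This actin gene was at 910.2, 1073 and 803 against 486, 339.9 and 347 FPKM (log2 difference -1.26, SE 0.24, adjusted p = 0.00507, call lost with equal medians at a log2 difference of -0.95). The gene act-4 was at 291, 383 and 834 against 625, 1377 and 975 FPKM (1.06, adjusted p = 0.0979). The lower count was 4, 3 and 2 without embryo column 1, 2 or 3 and 6, 3 and 2 without L3-L4 column 1, 2 or 3, and 1 with equal medians.

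Of 95 neuropeptide genes tested 67 were higher and 1 lower, with a median of 2.57. With any 1 column left out, 52 to 61 were higher. Of the 95, 9 reached the minimum in columns of 1 stage only. The gene nlp-24 was at 32.2, 9.11 and 23.6 FPKM in the embryo columns and 1327, 1433 and 1052 FPKM in the L3-L4 columns (log2 difference 5.96, SE 0.43, adjusted p = 9.9e-05). The gene nlp-33 was at 58.1, 20.5 and 95.8 against 823, 1756 and 349 FPKM (log2 difference 4.001, SE 0.71, adjusted p = 0.00344). The gene nlp-29 was at 20.9, 39.3 and 35.7 against 423, 555 and 139 FPKM (log2 difference 3.33, SE 0.53, adjusted p = 0.00208). Both nlp-29 and nlp-33 are antimicrobial peptides of the epidermis, so the most abundant members of the list are not all neuronal. Without embryo column 3 the lower count was 2. The lower gene, nlp-76, had 3 reads in embryos and none in larvae. The gene egl-3, a proprotein convertase that cuts neuropeptide precursors, was at 7.47, 7.32 and 12.4 against 111, 103 and 58.4 FPKM (log2 difference 3.17, SE 0.34, adjusted p = 0.000428). The gene egl-21, a carboxypeptidase, was at 5.28, 13.6 and 16.6 against 117, 106 and 63.3 FPKM (log2 difference 2.99, SE 0.44, adjusted p = 0.00158). The gene sbt-1, the chaperone of egl-3, was at 38.6, 16.3 and 16.483 against 128, 89.8 and 51.4 FPKM (log2 difference 1.89, SE 0.45, adjusted p = 0.0113, call lost without embryo column 2 or 3 or L3-L4 column 2 with adjusted p up to 0.0559). Of 39 synaptic genes 11 were higher and 4 lower, with 2 lower under equal medians and 1 after quantile normalisation. The higher count was 8, 8 and 9 without embryo column 1, 2 or 3 and 8, 7 and 10 without L3-L4 column 1, 2 or 3, and the lower count 3, 3 and 4 without embryo column 1, 2 or 3 and 3, 2 and 3 without L3-L4 column 1, 2 or 3. Synaptobrevin, snb-1, was at 46.9, 77.7 and 101 against 68.1, 81.2 and 58.3 FPKM (-0.06, adjusted p = 0.881). Syntaxin, unc-64, was at 39.3, 39.9 and 61.1 against 86.9, 55.02 and 64.1 FPKM (0.55, adjusted p = 0.138), both with overlapping columns. The GABA-making enzyme unc-25 rose (2.37). The gene unc-33, which guides axon growth, was at 64.7, 64.7 and 151.6 against 31.05, 27.7 and 36.3 FPKM (log2 difference -1.42, SE 0.36, adjusted p = 0.0148, call lost without L3-L4 column 1 or 2 with adjusted p up to 0.0604, call lost after quantile normalisation at adjusted p = 0.0551), and unc-119, a neuronal gene of axon development, fell (-2.44).

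Genes of touch neurons and cilia gave 2 higher and 8 lower of 32, with 4 lower under equal medians. The lower count was 3, 6 and 4 without embryo column 1, 2 or 3 and 2, 7 and 2 without L3-L4 column 1, 2 or 3. The gene mec-17, the tubulin acetyltransferase of touch neurons, rose from 19.7, 19.3 and 15.4 to 53.8, 38.7 and 40.3 FPKM (log2 difference 1.23, SE 0.24, adjusted p = 0.00528). Their alpha-tubulin mec-12 went from 6.40, 10.8 and 12.9 to 26.3, 40.8 and 23.4 FPKM (log2 difference 1.51, SE 0.36, adjusted p = 0.0113). Their beta-tubulin mec-7 was at 12.3, 28.8 and 22.9 against 18.98, 22.5 and 20.8 FPKM (0.04, adjusted p = 0.935). The gene daf-19, the RFX factor of cilium genes, was at 11.3, 8.06 and 14.8 against 4.47, 5.35 and 2.80 FPKM (log2 difference -1.25, SE 0.39, adjusted p = 0.033, call lost without embryo column 1 or 3 or L3-L4 column 1, 2 or 3 with adjusted p up to 0.102, call lost with equal medians at adjusted p = 0.078). Among the lower tubulins, tbb-4, found in cilia, fell (-3.05).

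Intestinal genes of structure, digestion and metal storage were higher for 40 of 46 tested, with a median of 3.37. In limma 0 were lower, also at an unadjusted p under 0.05, and in voom 0. With 1 column left out, 36 or 37 were higher. The aspartyl protease gene asp-1 was at 85.6, 95.6 and 219 FPKM in the embryo columns and 602, 2782 and 2218 FPKM in the L3-L4 columns (log2 difference 3.66, SE 0.63, adjusted p = 0.00298). The gene asp-6 was at 103, 69.8 and 99.6 against 834, 1190.0 and 1270.4 FPKM (log2 difference 3.58, SE 0.26, adjusted p = 9.92e-05). The gene act-5, the actin of intestinal microvilli, was at 141, 149 and 144 against 623, 1122 and 1435 FPKM (log2 difference 2.78, SE 0.32, adjusted p = 0.000564). The cathepsin B gene cpr-5 (7.11), the lysozyme gene lys-4 (6.10) and the acyl-CoA dehydrogenase gene acdh-1 (7.57) rose from under 6 FPKM in every embryo column. The fatty acid desaturase genes fat-2 (6.76) and fat-6 (6.29) rose from 2.003, 1.13 and 11.7 and 0.904, 1.53 and 1.99 FPKM, and fat-7 had no embryo read and 119.4, 61.4 and 22.8 FPKM in larvae. The gene ifb-2, an intermediate filament of the intestinal brush border, was at 92.0, 73.6 and 95.4 against 179, 297 and 279 FPKM (log2 difference 1.495, SE 0.25, adjusted p = 0.00279). The gene ges-1, the gut esterase expressed from early embryos, was at 7.32, 10.7 and 5.36 against 14.3, 17.9 and 18.5 FPKM (log2 difference 1.06, SE 0.34, adjusted p = 0.0352, call lost without embryo column 1 or 3 or L3-L4 column 1, 2 or 3 with adjusted p up to 0.1). The gene cpr-6 was at 73.8, 59.4 and 75.6 against 102, 163 and 234 FPKM (log2 difference 1.17, SE 0.32, adjusted p = 0.0195, call lost without embryo column 1, 2 or 3 or L3-L4 column 2 or 3 with adjusted p up to 0.0797). Genes of pharyngeal glands and the pharyngeal cuticle were higher for 9 of 24 and lower for 5 (3 after quantile normalisation), and the lower count was 3, 3 and 4 without embryo column 1, 2 or 3 and 5, 5 and 4 without L3-L4 column 1, 2 or 3. Of the 24, 7 reached the minimum in columns of 1 stage only. The gene phat-4, a secreted gland product, rose from 25.9, 25.98 and 21.1 to 366, 289 and 157 FPKM (log2 difference 3.35, SE 0.33, adjusted p = 0.000293). The gene abu-13 fell from 69.02, 70.9 and 65.9 to 15.8, 23.6 and 15.3 FPKM (log2 difference -1.88, SE 0.24, adjusted p = 0.000839), while abu-14 (-1.03, adjusted p = 0.142) and phat-2 (0.51, adjusted p = 0.276) were not called.

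Of 82 cytosolic ribosomal protein genes tested 74 were higher, with a median of 2.11. In limma 0 were lower, 1 at an unadjusted p under 0.05, and in voom 0, while quantile normalisation gave 63 higher and 1 lower. The gene rpl-39 was at 1212, 1076 and 941 FPKM in the embryo columns and 6961, 3258 and 5491 FPKM in the L3-L4 columns (log2 difference 2.22, SE 0.37, adjusted p = 0.00267), and rpl-41.2 at 2776, 2298 and 3026 against 11379, 4805 and 7560.3 FPKM (log2 difference 1.47, SE 0.44, adjusted p = 0.0285, call lost without embryo column 1, 2 or 3 or L3-L4 column 1 or 3 with adjusted p up to 0.101). The gene rps-17 was at 1887, 1423 and 1211 against 6845, 2582 and 4244 FPKM (log2 difference 1.51, SE 0.43, adjusted p = 0.0243, call lost without embryo column 2 or 3 or L3-L4 column 1 or 3 with adjusted p up to 0.0862, call lost after quantile normalisation at adjusted p = 0.124). Some ribosomal genes have near-identical copies. The 83 genes in the table summed to 34457 to 46511 FPKM in embryos and 143151 to 162918 FPKM in larvae. Of 29 translation factors 9 were higher and 1 lower, and 15 were higher with equal medians. The lower count was 2, 1 and 1 without embryo column 1, 2 or 3 and 1, 1 and 2 without L3-L4 column 1, 2 or 3. The gene eef-2, elongation factor 2, was at 495, 739.6 and 761 against 2375, 1921 and 2146 FPKM (log2 difference 1.71, SE 0.28, adjusted p = 0.00229, call lost after quantile normalisation at a log2 difference of 0.92). The eIF5A gene iff-2 was at 595, 575 and 662 against 1499, 1315 and 1671 FPKM (log2 difference 1.29, SE 0.23, adjusted p = 0.00341, call lost after quantile normalisation at adjusted p = 0.216), and eef-1A.1 at 283, 329 and 1731 against 1837, 3420.0 and 3720.0 FPKM (log2 difference 2.39, SE 0.71, adjusted p = 0.0266, call lost without embryo column 1 or 2 or L3-L4 column 2 or 3 with adjusted p up to 0.112, call lost after quantile normalisation at adjusted p = 0.0722), where embryo column 3 stood far above the other embryo columns. The lower gene was ife-4, an eIF4E type cap-binding protein, at 63.5, 59.8 and 66.5 against 8.06, 2.96 and 12.1 FPKM (log2 difference -3.05, SE 0.44, adjusted p = 0.00142).

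Of 11 protein-coding genes of the mitochondrial genome 8 were higher, 10 with equal medians and 3 after quantile normalisation. In limma 0 were lower, also at an unadjusted p under 0.05, and in voom 0. The higher count was 4, 2 and 8 without embryo column 1, 2 or 3 and 1, 2 and 7 without L3-L4 column 1, 2 or 3. MTCE.21 was at 1184, 789.7 and 1387 FPKM in the embryo columns and 5470.3, 3776 and 2957 FPKM in the L3-L4 columns (log2 difference 1.85, SE 0.37, adjusted p = 0.00572). MTCE.26 was at 2335, 1355 and 2454 against 7816, 4793 and 4191 FPKM (log2 difference 1.45, SE 0.42, adjusted p = 0.0252, call lost without embryo column 1 or 2 or L3-L4 column 1, 2 or 3 with adjusted p up to 0.0898), and MTCE.25 at 1433, 875 and 1556 against 5073, 3203 and 2657 FPKM (log2 difference 1.49, SE 0.39, adjusted p = 0.0162, call lost without embryo column 2 or L3-L4 column 1 with adjusted p up to 0.0633, call lost after quantile normalisation at adjusted p = 0.0605). Among nuclear genes of the respiratory chain and ATP synthase 21 of 41 were higher and 30 with equal medians, with a median of 1.198. In limma 0 were lower, also at an unadjusted p under 0.05, and in voom 0. The gene ant-1.1, the ADP/ATP carrier, was at 297, 410.3 and 891 against 2007, 3072 and 2657 FPKM (log2 difference 2.41, SE 0.43, adjusted p = 0.00364). The ATP synthase beta subunit gene atp-2 was at 205, 406 and 423 against 1181, 1872 and 1373 FPKM (log2 difference 2.1396, SE 0.35, adjusted p = 0.00245). The alpha subunit gene atp-1 was at 117, 226 and 367 against 931, 1442 and 1101 FPKM (log2 difference 2.41, SE 0.42, adjusted p = 0.00324). Embryo column 3 was the highest embryo column of these 3 nuclear genes, yet under each larval column.

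Sugar and glyoxylate genes were higher for 20 of 35 and lower for 2. The 2 lower ones were gpd-1, at 60.9, 137 and 79.3 against 2.002, 8.84 and 6.01 FPKM (log2 difference -3.90, SE 0.51, adjusted p = 0.000921), and gpd-4 (-3.44), while the other glyceraldehyde-3-phosphate dehydrogenase genes, gpd-2 (2.52) and gpd-3 (1.67), rose. Both gpd-1 and gpd-4 are near-identical to each other, as are gpd-2 and gpd-3, so reads within each pair are uncertain. The gene cts-1, citrate synthase, was at 175, 229 and 254 against 491, 595 and 644 FPKM (log2 difference 1.40, SE 0.23, adjusted p = 0.00244), and the malate dehydrogenase gene mdh-2 (3.02) and the enolase gene enol-1 (2.59) rose. The gene mdh-1 was at 292, 353 and 305 against 618, 657 and 537 FPKM (0.93, adjusted p = 0.00777), under the 2-fold limit. The gene pck-2, phosphoenolpyruvate carboxykinase, was at 254, 423 and 291 against 813, 469 and 467 FPKM (0.84, adjusted p = 0.0618). Lipid genes were higher for 19 of 32 and lower for 3. The gene lbp-1, a fatty acid binding protein secreted by the embryonic epidermis, fell from 1897, 1334 and 1234 to 83.7, 66.8 and 90.8 FPKM (log2 difference -4.18, SE 0.25, adjusted p = 5.42e-05), as did atgl-1, the lipase that opens fat stores (-2.04). The gene far-1 was at 540.2, 558 and 871 against 1210.0, 3267 and 1447 FPKM (log2 difference 1.48, SE 0.43, adjusted p = 0.0246, call lost without embryo column 1 or 2 or L3-L4 column 3 with adjusted p up to 0.0931, call lost after quantile normalisation at adjusted p = 0.213), and the elongase genes elo-5 (6.83) and elo-1 (3.42) rose. The third lower gene was cpt-1.

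Of 29 stress genes 9 were higher and 3 lower. The lower 3 were small heat-shock proteins. The embryonic sip-1 was at 953, 1172 and 1110.0 against 185, 45.1 and 90.5 FPKM (log2 difference -3.54, SE 0.47, adjusted p = 0.00101). The inducible hsp-16.2 was at 118.8, 119.6 and 146 against 1.92, 12.7 and 5.76 FPKM (log2 difference -4.31, SE 0.53, adjusted p = 0.000716). The related hsp-16.41 was at 555, 274 and 404 against 17.5, 15.0002 and 26.2 FPKM (log2 difference -4.30, SE 0.32, adjusted p = 0.000114). Embryos were taken after hypochlorite treatment and washing and larvae after culture, so stage and handling cannot be told apart here. The gene hsp-1, the constitutive cytosolic Hsp70, rose from 336, 504 and 526 to 1187, 1541 and 1402 FPKM (log2 difference 1.61, SE 0.27, adjusted p = 0.00252, call lost after quantile normalisation at a log2 difference of 0.87), and the mitochondrial chaperone genes hsp-6 (2.03) and hsp-60 (2.62) rose too. The gene hsp-3, the Hsp70 of the endoplasmic reticulum, was at 531, 564 and 645 against 332, 605 and 548 FPKM (-0.27, adjusted p = 0.459).

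Among genes of defence, C-type lectins gave 48 higher and 10 lower of 77. Of the 77, 19 reached the minimum in columns of 1 stage only. The gene clec-63 was at 13.6, 10.99 and 24.2 against 233, 841 and 713 FPKM (log2 difference 4.99, SE 0.52, adjusted p = 0.000396). The gene clec-87 fell from 459, 644 and 493 to 9.08, 13.4 and 4.54 FPKM (log2 difference -5.83, SE 0.36, adjusted p = 6.08e-05), as did clec-266 above. Cytochrome P450, UDP-glucuronosyltransferase and glutathione S-transferase genes gave 52 higher and 18 lower of 136. Of the 136, 15 reached the minimum in columns of 1 stage only. The gene ugt-62 rose from 26.9, 7.61 and 17.5 to 200.1, 106 and 79.8 FPKM (log2 difference 2.87, SE 0.51, adjusted p = 0.0033). The gene gst-7 was at 197, 299 and 175 against 73.8, 69.5 and 43.8 FPKM (log2 difference -1.82, SE 0.30, adjusted p = 0.00239). The gene gst-1 was at 103, 100.2 and 125.4 against 188, 114 and 197 FPKM (0.57, adjusted p = 0.112). Of 18 genes of the response to intracellular pathogens 9 were higher and 1 lower, and 4 reached the minimum in columns of 1 stage only. The gene skr-3 was at 39.5, 34.9 and 30.2 against 74.7, 89.2 and 73.2 FPKM (log2 difference 1.16, SE 0.21, adjusted p = 0.00342). The gene pals-24 was at 9.41, 6.08 and 7.88 against 45.4, 63.3 and 30.5 FPKM (log2 difference 2.39, SE 0.34, adjusted p = 0.00133). The gene pals-26 was at 218, 80.8 and 100.3 against 182, 400.3 and 315 FPKM (1.22, adjusted p = 0.0544). The lower gene, pals-34, had 7 reads in embryos and none in larvae (at least 2.63-fold lower).

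Nuclear hormone receptors, transcription factors that bind small molecules, gave 19 higher and 33 lower of 190, 25 and 23 with equal medians, and their median turned from -0.21 to 0.10. The gene nhr-97 was at 55.3, 50.9 and 68.98 against 133, 108 and 171 FPKM (log2 difference 1.21, SE 0.24, adjusted p = 0.00554). The gene nhr-86 was at 100.3, 72.1 and 73.5 against 33.2, 24.1 and 29.1 FPKM (log2 difference -1.47, SE 0.23, adjusted p = 0.00215). The gene nhr-31 was at 48.02, 52.5 and 45.6 against 62.8, 56.4 and 60.5 FPKM (0.29, adjusted p = 0.231). Chemoreceptor genes were mostly unread: 56 of 927 were tested, 9 were higher and 10 lower (10 and 7 with equal medians, where the median turned from -0.24 to 0.07). Of the 56, 18 reached the minimum in columns of 1 stage only. The higher count was 6, 7 and 6 without embryo column 1, 2 or 3 and 10, 16 and 23 without L3-L4 column 1, 2 or 3, and the lower count 12, 23 and 22 without embryo column 1, 2 or 3 and 7, 7 and 8 without L3-L4 column 1, 2 or 3. The gene srv-1 was at 12.05, 4.95 and 9.63 against 27.2, 17.2 and 33.6 FPKM (log2 difference 1.48, SE 0.41, adjusted p = 0.0208, call lost without embryo column 2 or 3 or L3-L4 column 1 or 3 with adjusted p up to 0.0818). The gene srsx-26 was at 3.72, 2.1002 and 2.72 against 13.2, 10.9 and 3.71 FPKM (1.29, adjusted p = 0.0733). The gene srw-86 was at 2.42, 2.74 and 0 against 27.98, 14.2 and 0 FPKM (1.70, adjusted p = 0.299). The gene str-148 had 8.34, 5.39 and 5.24 FPKM in embryos and no read in larvae (at least 5.26-fold lower).

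Sperm genes were read in larvae at low levels. Of 31 major sperm protein genes, the signal and motor proteins of sperm, 10 were tested and these 10 were higher, but 9 of them reached the minimum in columns of 1 stage only. The 31 genes summed to 0 to 2.81 FPKM in the embryo columns and 94.7 to 176 FPKM in the larval columns. The gene msp-64 had no embryo read and 24.4, 11.97 and 12.2 FPKM in larvae (at least 4.73-fold), msp-31 19.7, 19.04 and 3.70 FPKM (at least 4.73-fold) and msp-142 20.3, 2.80 and 19.1 FPKM (at least 4.14-fold). In young adults their means were 497, 327 and 322 FPKM. These genes are near-identical, so only the sum is firm. The gene msp-3 had 1 read. Of 39 other sperm genes 13 were tested, 4 were higher and 1 lower, or 2 and 1 after quantile normalisation. The higher count was 2, 2 and 1 without embryo column 1, 2 or 3 and 2, 7 and 6 without L3-L4 column 1, 2 or 3. The gene gsp-3, a sperm phosphatase, went from 0 to 4.33, 5.98 and 6.50 FPKM (at least 3.84-fold), and gsp-4 from 1 read to 5.02, 2.77 and 1.26 FPKM (8.86-fold over the pooled reads, 95% counting interval 1.26 to 385, call lost without embryo column 1 or 3 or L3-L4 column 1 or 2 with adjusted p up to 0.146, call lost after quantile normalisation at adjusted p = 0.0618). The gene ssq-4 was at 1.08, 0 and 0 against 12.4, 3.17 and 2.87 FPKM (15.96-fold over the pooled reads, 95% counting interval 2.52 to 665, call lost without embryo column 2 or 3 or L3-L4 column 1 with adjusted p up to 0.0804), and spe-9, the sperm surface receptor of fertilisation, had 1 and 10 reads and was not tested. Both spe-39 (-0.43, adjusted p = 0.316) and cpb-1 (0.82, adjusted p = 0.182) were not called. The gene nep-1, a neprilysin in the list, fell from 70.7, 75.9 and 70.3 to 8.08, 16.3 and 2.69 FPKM (log2 difference -3.13, SE 0.53, adjusted p = 0.00272).

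Genes of the germ line's fate choice went both ways, 5 higher and 8 lower of 22, and 7 and 5 with equal medians or quantile normalisation. The higher count was 4, 3 and 4 without embryo column 1, 2 or 3 and 2, 5 and 2 without L3-L4 column 1, 2 or 3. The gene fbf-2, a Pumilio protein that keeps germline stem cells, rose from 1 read to 11.9, 10.1 and 16.477 FPKM (62.1-fold over the pooled reads, 95% counting interval 10.8 to 2485). Also, fbf-1 rose (log2 difference 2.17, adjusted p = 0.0144, called in 4 of 6 fits with 1 column left out). In contrast glp-1 fell (log2 difference -1.43, adjusted p = 0.0127, called in 5 of 6 such fits). The gene tra-1, the last factor of sex determination, rose from 5.11, 9.997 and 14.96 to 29.3, 46.7 and 32.2 FPKM (log2 difference 1.83, SE 0.41, adjusted p = 0.00872). The gene fog-3, which commits germ cells to sperm, was at 1.31, 2.95 and 1.91 against 26.7, 3.84 and 10.4 FPKM (log2 difference 1.95, SE 0.66, adjusted p = 0.0429, call lost without embryo column 1, 2 or 3 or L3-L4 column 1 or 3 with adjusted p up to 0.137). The gene her-1, the secreted signal for male development, fell from 22.7, 14.01 and 21.2 to 1.84, 0 and 0 FPKM (27.1-fold over the pooled reads, 95% counting interval 4.41 to 1113). The RNA-processing gene mog-1 stood at 40.9, 59.3 and 44.1 against 19.6, 21.7 and 22.2 FPKM (log2 difference -1.13, SE 0.23, adjusted p = 0.00629, call lost without embryo column 2 with a log2 difference down to -0.97, call lost with equal medians at a log2 difference of -0.82 and after quantile normalisation at a log2 difference of -0.73). The gene gls-1 was at 45.4, 49.9 and 42.6 against 17.6, 14.8 and 19.8 FPKM (log2 difference -1.36, SE 0.22, adjusted p = 0.00249, call lost after quantile normalisation at a log2 difference of -0.96). The gene nos-3 was at 38.7, 45.9 and 40.3 against 23.6, 30.6 and 26.1 FPKM (-0.62, adjusted p = 0.0476). Meiotic chromosome genes gave 6 higher and 4 lower of 33, and the higher count was 0, 2 and 3 without embryo column 1, 2 or 3 and 0, 5 and 1 without L3-L4 column 1, 2 or 3. The gene zhp-3, a crossover factor, fell from 48.8, 33.8 and 35.04 to 8.85, 9.76 and 14.6 FPKM (log2 difference -1.75, SE 0.29, adjusted p = 0.00272). The gene plk-2, the kinase of chromosome pairing, was at 7.75, 8.76 and 13.98 against 31.3, 18.1 and 25.4 FPKM (log2 difference 1.22, SE 0.34, adjusted p = 0.0213, call lost without embryo column 1 or 2 or L3-L4 column 1 or 3 with adjusted p up to 0.0815). The axis genes htp-2 (-0.99, adjusted p = 0.188) and htp-1 (0.74, adjusted p = 0.286) overlapped between the stages.

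Oocyte and eggshell genes were lower for 9 of 15, or 7 with equal medians, 8 after quantile normalisation and 6 with no filter. With any 1 column left out, 6 to 8 were lower. In limma 0 were higher, also at an unadjusted p under 0.05, and in voom 0. The gene mbk-2, a kinase of the passage from oocyte to embryo, was at 168, 203 and 212 against 44.3, 45.9 and 37.9 FPKM (log2 difference -2.16, SE 0.19, adjusted p = 0.000215). The gene sqst-1, the p62 autophagy receptor and not an eggshell gene, was in the list too. It was at 116, 132 and 114 against 46.98, 45.2 and 19.5 FPKM (log2 difference -1.77, SE 0.35, adjusted p = 0.00529). The gene cpg-1, an eggshell proteoglycan, was at 28.3, 17.5 and 98.9 against 6.59, 4.63 and 0.899 FPKM (log2 difference -3.13, SE 0.75, adjusted p = 0.0121). Embryo column 3 was the highest for cpg-1, cpg-2 (11.08, 15.03 and 49.8 against 5.91, 15.2 and 1.97 FPKM; -1.63, adjusted p = 0.116) and the eggshell gene cbd-1 (14.9, 18.9 and 49.1 against 8.67, 8.37 and 9.75 FPKM; log2 difference -1.34, SE 0.45, adjusted p = 0.0427, call lost without embryo column 2 or 3 or L3-L4 column 1, 2 or 3 with adjusted p up to 0.121, call lost with equal medians at adjusted p = 0.0948 and after quantile normalisation at adjusted p = 0.0965). The gene egg-1 was at 4.96, 2.40 and 5.20 against 0.630, 0.695 and 0.945 FPKM (log2 difference -1.52, SE 0.41, adjusted p = 0.019, call lost without embryo column 1 or 3 or L3-L4 column 1 or 2 with adjusted p up to 0.0675). The yolk receptor rme-2 was at 2.21, 1.99 and 8.41 against 1.96, 2.59 and 4.11 FPKM (-0.24, adjusted p = 0.741). The chitin synthase chs-1 was at 8.83, 6.65 and 7.34 against 7.06, 5.48 and 7.06 FPKM (-0.19, adjusted p = 0.654). In young adults rme-2 had a mean of 112.99 FPKM and cpg-2 of 442 FPKM, far above both stages. Yolk protein genes were close to 0 in both, with 2 of 3 tested higher (0, 1 and 1 without embryo column 1, 2 or 3 and 2, 0 and 0 without L3-L4 column 1, 2 or 3 were higher). The gene vit-6 was at 0, 1.71 and 0.369 against 2.24, 9.87 and 7.04 FPKM (log2 difference 2.09, SE 0.61, adjusted p = 0.0261, call lost without embryo column 1 or 3 or L3-L4 column 2 or 3 with adjusted p up to 0.0995). The gene vit-1 was at 0.245, 0.277 and 0.719 against 1.74, 5.53 and 7.19 FPKM (log2 difference 1.92, SE 0.51, adjusted p = 0.0182, call lost without embryo column 1 or 2 or L3-L4 column 2 or 3 with adjusted p up to 0.0675). The gene vit-2 was at 0.775, 1.17 and 0.758 against 2.297, 1.77 and 1.03 FPKM (0.49, adjusted p = 0.333). The young adult means of the 3 genes were 1592, 546 and 1139 FPKM.

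**Figure D3:**
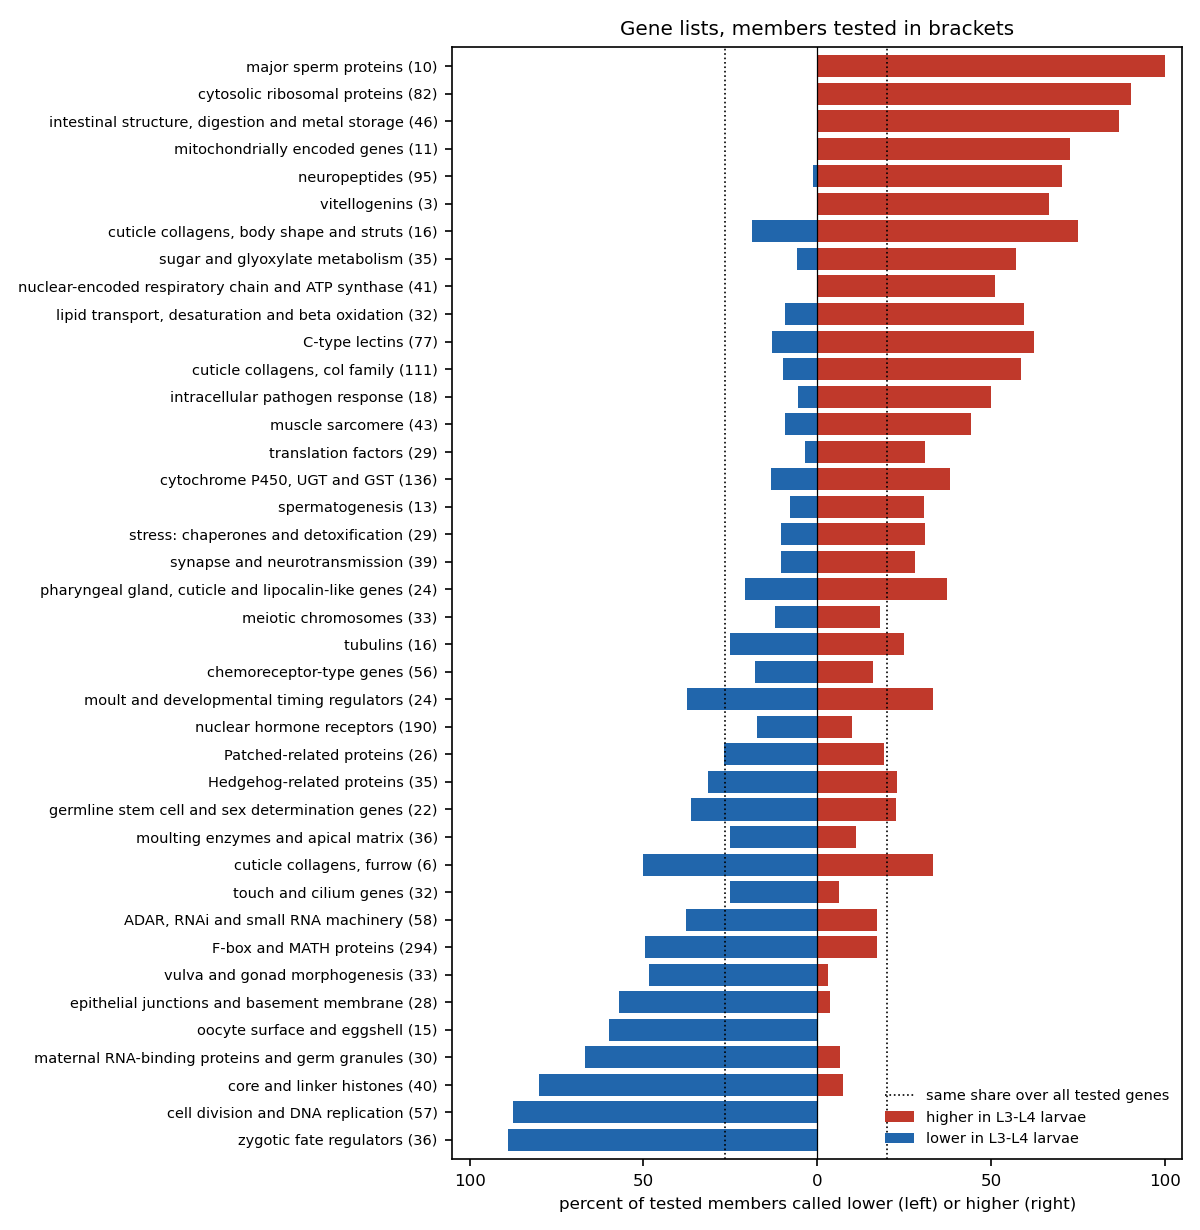
Share of the tested members of each of 40 gene lists that were called higher (red, right) or lower (blue, left) in L3-L4 larvae, in percent, with the number tested in brackets and dotted lines at the shares over all tested genes, 20.1% and 26.4%. Major sperm proteins, ribosomal proteins and intestinal genes stand at the top, and histones, cell division and zygotic fate genes at the bottom.

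The machinery of RNA interference and editing, which acts on double-stranded RNA, was lower for 22 of 58 genes and higher for 10, or 15 and 12 with equal medians and 14 and 10 after quantile normalisation. Both ADAR genes were lower: adr-2, the active deaminase, was at 53.5, 53.6 and 49.6 FPKM in the embryo columns and 24.1, 17.7 and 21.1 FPKM in the L3-L4 columns (log2 difference -1.29, SE 0.22, adjusted p = 0.00269). The gene adr-1, its partner that lacks activity, was at 61.8, 77.4 and 51.99 against 34.3, 26.95 and 28.1 FPKM (log2 difference -1.06, SE 0.23, adjusted p = 0.00848, call lost without embryo column 2 or L3-L4 column 2 with a log2 difference down to -0.91). With equal medians the differences were -0.98 and -0.75, and after quantile normalisation -0.91 and -0.71, under the 2-fold limit in either case. The dicer gene dcr-1 was at 23.4, 26.7 and 27.1 against 12.9, 17.3 and 16.35 FPKM (-0.70, adjusted p = 0.0478). The gene rde-4, which binds dsRNA beside dicer, was at 31.1, 40.1 and 28.2 against 19.05, 15.2 and 20.7 FPKM (-0.82, adjusted p = 0.0325). Both passed the p threshold but not the 2-fold limit. The Argonautes went both ways. The gene ergo-1, which loads small RNAs in embryos, fell from 129, 202 and 122 to 19.9, 18.1 and 20.9 FPKM (log2 difference -2.85, SE 0.25, adjusted p = 0.000195). The gene nrde-3, the somatic nuclear Argonaute, went from 98.3, 134 and 93.5 to 9.89, 8.36 and 5.93 FPKM (log2 difference -3.60, SE 0.27, adjusted p = 0.000115). The gene csr-1, an essential germline Argonaute, rose from 11.9, 10.2 and 7.92 to 72.96, 39.5 and 85.4 FPKM (log2 difference 2.55, SE 0.34, adjusted p = 0.00106). The most abundant member, vig-1, was at 349, 302 and 491 against 823, 1348 and 1416 FPKM (log2 difference 1.64, SE 0.31, adjusted p = 0.00448, call lost after quantile normalisation at a log2 difference of 0.97). The gene ain-2, a GW182-type partner of microRNA Argonautes, was at 229.8, 197 and 263 against 88.0, 65.9 and 81.4 FPKM (log2 difference -1.54, SE 0.21, adjusted p = 0.00111). The Tudor nuclease gene tsn-1 was at 61.7, 59.2 and 74.5 against 180.3, 188 and 264 FPKM (log2 difference 1.66, SE 0.22, adjusted p = 0.00105).

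Among RNA classes, protein-coding genes of the nucleus took most reads at either stage, 87.2% ± 3.01 (SD, n = 3 columns) in embryos and 84.7% ± 0.303 in larvae. With 3 columns against 3, an exact two-sided permutation test cannot go below 0.10, and 13 classes were compared. Mitochondrial protein-coding genes had 1.13% ± 0.325 of gene reads in embryos and 3.19% ± 0.991 in larvae, snoRNAs 1.92% ± 0.408 and 3.45% ± 0.402, and lincRNAs 0.00985% ± 0.00147 and 0.156% ± 0.0263. All 3 larval columns lay above all 3 embryo columns in each of these classes (exact permutation p = 0.1, the smallest possible). The gene lep-5 alone held 3475 of the 3574 lincRNA reads in larvae. Without it the other 16 lincRNA genes held 191 reads in embryos and 99 in larvae, with 1 higher and 3 lower of 9 tested, so the larger larval share of the class rests on lep-5. The snoRNA genes with most reads, F25H2.14 (log2 difference 2.29, SE 0.46, adjusted p = 0.00576) and T24H7.6 (log2 difference 2.36, SE 0.49, adjusted p = 0.00638), were higher, and of 115 snoRNA genes tested 41 were higher and 11 lower. The class of other ncRNAs went the other way, from 5.18% ± 1.96 to 3.10% ± 0.0833 (exact p = 0.1). That difference of -2.08 percentage points was -0.961 without embryo column 1. The piRNA loci went from 0.131% ± 0.0199 to 0.0876% ± 0.00527 (exact p = 0.1). The gene lfor-1 dropped from 18775 to 3547 reads (log2 difference -2.40, SE 0.67, adjusted p = 0.021, call lost without L3-L4 column 1, 2 or 3 with adjusted p up to 0.179), while rpr-1, the RNA of RNase P, held 52785 and 45484 reads. Ribosomal RNA was at 2.09% ± 1.05 and 2.97% ± 0.971 (exact p = 0.4), with overlapping columns. None of these tests can pass 0.05 at this number of columns, before or after adjustment.

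**Figure D4:**
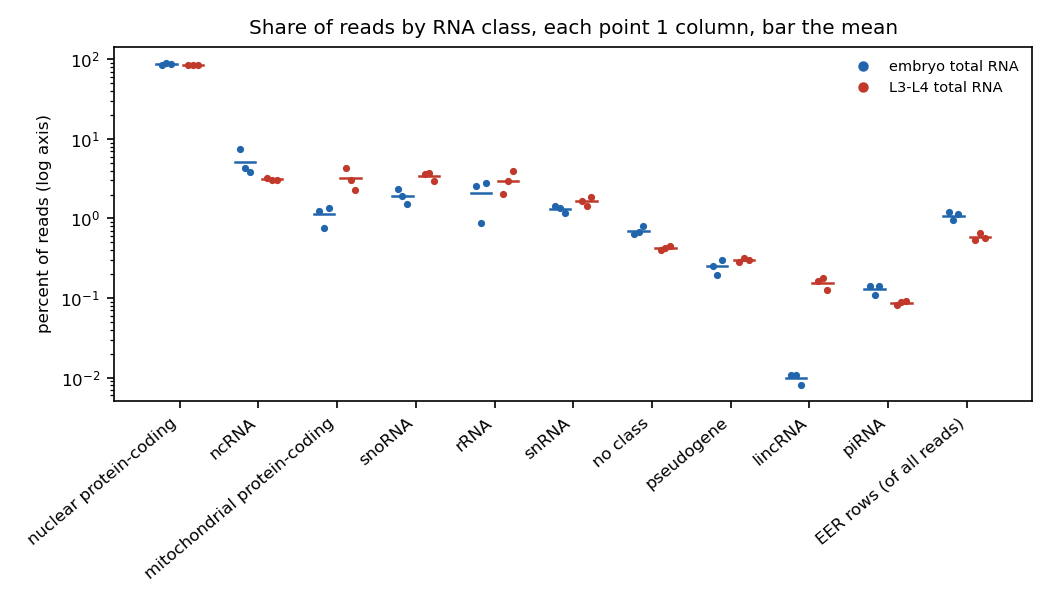
Percent of reads by RNA class on a log axis, 1 point per column, blue for embryo and red for L3-L4 total RNA, bars at the mean, with EER rows at the right as a percent of all reads. lincRNA, mitochondrial and snoRNA points lie higher in larvae, and EER, ncRNA and piRNA points lower.

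Among the 1541 EERs, 1018 were tested, 40 were higher (3.93%) and 221 lower (21.7%), with a median log2 difference of -0.73 against -0.20 over genes. With equal medians 54 were higher and 161 lower, and after quantile normalisation 48 and 185. EERs took 1.19%, 0.946% and 1.12% of the reads of the embryo columns and 0.530%, 0.654% and 0.574% of the L3-L4 columns. Each embryo column was above each larval column (exact permutation p = 0.1, the smallest possible). EERs held a median of 10 reads over the 6 columns, and what this depth does to the count of calls was not tested. A level of an EER is the level of RNA read over it, edited or not.

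The authors' region lists are named for these stages and so are not independent of them. By these lists 342 EERs overlapped the embryo list and not the L3-L4 list. Of the 275 tested among them 116 were lower (42.2%). Of 99 tested that were in the L3-L4 list and not the embryo list, 17 were higher and 7 lower. Among the 223 tested that were in both lists, 12 were higher and 49 lower. The 421 tested that were in neither list gave 11 and 49. An overlap of 1 base on either strand counted.

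For 175 of the 221 lower EERs the holding gene was tested, and 99 of those genes were lower, 74 not called and 2 higher. For the 29 higher EERs with a tested gene the figures were 2 lower, 16 not called and 11 higher. Over all 802 tested EERs with a tested gene, 32.4% of the genes were lower and 7.6% higher, against 56.6% lower for the lower EERs and 37.9% higher for the higher EERs, with no test of the difference. Over the 184 EERs with at least 30 reads and a tested gene the log2 differences of EER and gene correlated at r = 0.832, and over all 802 at 0.502, as a description across regions that share libraries and, often, a gene (802 EERs lay in 582 genes). Whether reads over an EER also count in its gene is not given in the sources used here. The calls and log2 differences of EER and gene may therefore rest on shared reads. EERs outside any gene span gave 11 higher and 43 lower of 205 tested.

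The 5 EERs that fell most with at least 30 reads lay, in ce10 coordinates, at chrII:12755776-12755848, chrI:10824846-10825238, chrII:3008796-3008897, chrI:13842590-13842710 and chrII:1049170-1050951. EA6_EER564-, within the span of Y46G5A.7 on chromosome II, stood at 753, 574 and 334 FPKM in the embryo columns and 0, 0 and 0 FPKM in the L3-L4 columns (at least 31.96-fold lower). EA6_EER344+, in C35E7.5, was at 192, 235.3 and 219 against 0, 0 and 0 FPKM (at least 63.6-fold lower). Neither had a read in larvae. EA6_EER463-, the longest of the 5 with 1782 bases, lay in the F-box gene fbxb-40 and stood at 40.9, 30.8 and 25.2 against 0.638, 0 and 0 FPKM (134-fold over the pooled reads, 95% counting interval 23.6 to 5346). EA6_EER407-, in W04A8.4, was at 338, 143 and 635 against 0, 10.4 and 14.1 FPKM (47.9-fold over the pooled reads, 95% counting interval 12.9 to 402). EA6_EER484+, in no gene span, was at 226, 141.7 and 184 against 11.14, 0 and 0 FPKM (42.9-fold over the pooled reads, 95% counting interval 7.24 to 1737). The genes holding 4 of them fell too, with log2 differences of -6.28 for Y46G5A.7, -6.87 for C35E7.5, -5.26 for fbxb-40 and -5.63 for W04A8.4.

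Of the 5 EERs that rose most with at least 30 reads, 4 lay in a gene span. EA6_EER1395- (chrV:13135017-13135901), in the C-type lectin gene clec-41, was at 2.89, 1.63 and 2.12 FPKM in the embryo columns and 20.5, 28.3 and 11.6 FPKM in the L3-L4 columns (log2 difference 2.65, SE 0.43, adjusted p = 0.00222), beside a gene that rose by 3.27. EA6_EER1446- (chrV:18555435-18556203), in the transthyretin-related gene ttr-24, was at 19.96, 7.52 and 7.31 against 50.2, 39.1 and 53.2 FPKM (log2 difference 2.08, SE 0.40, adjusted p = 0.00502), and EA6_EER271+ (chrI:3167505-3167901), in Y54E10A.6, at 9.67, 7.28 and 9.44 against 42.9, 22.1 and 21.5 FPKM (log2 difference 1.54, SE 0.35, adjusted p = 0.00925). The gene Y54E10A.6 itself was not called, with a log2 difference of 0.32. EA6_EER664+ (chrIII:850381-850883), in no gene span, was at 22.9, 8.62 and 40.99 against 76.8, 62.3 and 64.4 FPKM (log2 difference 1.69, SE 0.50, adjusted p = 0.0279, call lost without embryo column 1 or L3-L4 column 1, 2 or 3 with adjusted p up to 0.0973), and EA6_EER1142- (chrIV:7511664-7511734), in the phospholipase C gene plc-4, was at 18.01, 20.4 and 106 against 160.05, 265 and 96.0 FPKM (log2 difference 2.195, SE 0.70, adjusted p = 0.0349, call lost without embryo column 1 or 2 or L3-L4 column 1, 2 or 3 with adjusted p up to 0.14), with 6 and 29 reads and overlapping columns.

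**Figure D5:**
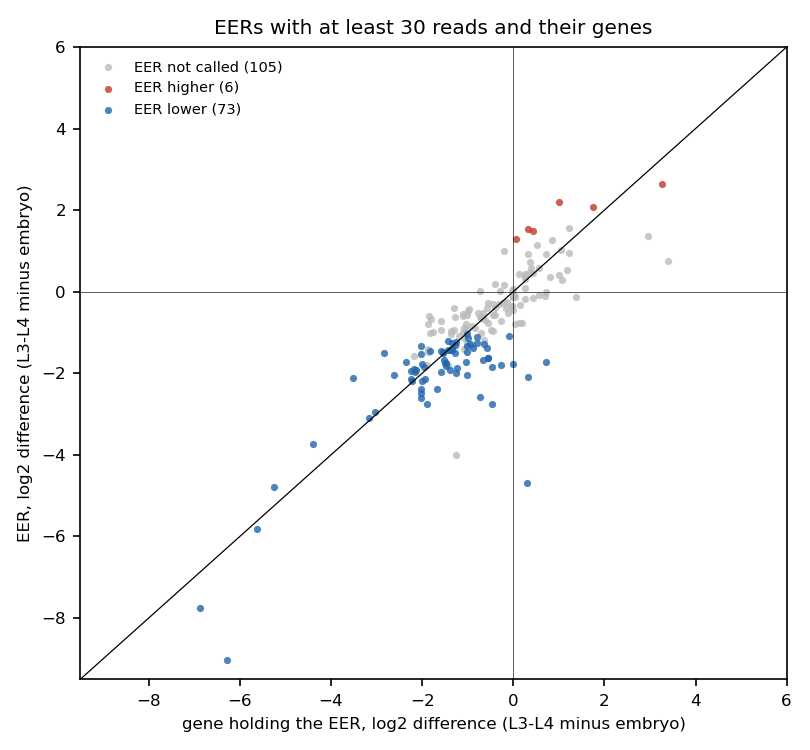
Log2 difference (L3-L4 minus embryo) of the 184 EERs with at least 30 reads (y axis) against that of the gene holding them (x axis), red for EERs called higher, blue for EERs called lower, with a line at equality. Most points follow the line, and 1 called EER near -4.68 lies over a gene near 0.31. An EER and its gene may share reads.

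That point was EA6_EER851- (chrIII:12223929-12224510), within gphr-1, a relative of the human Golgi pH regulator, and was picked after its values were seen. It stood at 264, 266 and 271 FPKM in the embryo columns and 23.4, 10.8 and 2.93 FPKM in the L3-L4 columns (log2 difference -4.68, SE 0.60, adjusted p = 0.000864). It had 311 reads in embryos and 18 in larvae, while gphr-1 gave a log2 difference of 0.31 (adjusted p = 0.664).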

How the data were processed

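Total RNA was sequenced from embryos and L3-L4 larvae, 2 of the 8 samples of the series; the table holds 3 numbered columns for each. The authors deposited FPKM per gene and per EER. Per the submitters' processing notes, Novoalign, bedtools 2.19.0, SAMtools 0.1.19 and the ce10 build were used. Strand use in counting, and whether a read counts in both a gene and an EER, are not given in the sources used here. The region lists, as deposited by the authors, carry a score whose meaning they do not give, so only positions were used. Reads were recovered from the FPKM steps: 100.0% of values above 0 lay within 0.05 of a whole read.

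FPKM plus a pseudocount of 1 was taken to log2, features with at least 1 FPKM in at least 3 of 6 columns were kept, and limma 3.58.1 (R 4.3.3, trended variance) was fitted to the 6 columns, with Benjamini-Hochberg adjustment over genes and EERs. Every adjusted p is from limma. A call needs adjusted p under 0.05 and a 2-fold difference. The script was tested on simulated data. RNA classes were looked up by sequence name in the WBcel235 gene annotation, which matched 25092 of 25509 genes and left 417 without a match; none of its coordinates are used. No sequence is printed. Counting intervals are exact, at 95%.

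The members and gene lists were chosen with earlier results of these data known. The genes named by rule were the 10 largest changes in each direction with at least 100 reads and no overlap between stages, stage markers, and in each list the 3 highest genes by mean FPKM with the highest called gene in each direction where both exist; EERs were taken 5 in each direction with at least 30 reads. Further genes were picked as examples after their values were seen: lin-28, lin-41, lin-29, lin-46, mab-10, daf-12, nhr-85, blmp-1, alg-2, adr-1, adr-2, csr-1, nrde-3, ergo-1, rde-4, dcr-1, fbf-1, fbf-2, glp-1, her-1, oma-1, mex-5, elt-2, pha-4, mcm-7, cdk-1, plk-1, rol-6, sqt-1, bli-2, dpy-8, dpy-13, nas-36, nas-38, grl-21, grd-3, tnt-2, unc-22, pat-3, egl-21, unc-25, unc-119, cpr-5, fat-6, fat-7, fat-2, acdh-1, lys-4, mdh-2, enol-1, gpd-2, gpd-3, gpd-4, elo-5, elo-1, atgl-1, hsp-16.2, hsp-16.41, hsp-6, hsp-60, tbb-4, hmr-1, hmp-1, lin-12, his-24, lfor-1, F25H2.14, T24H7.6. Alternatives covered the pseudocount, filter, scaling, variance model, 12 columns, the column number as a block, voom on recovered reads and each column left out.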

Additional observations from a re-analysis of the deposited data

How the results depend on the processing

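Genes higher and lower numbered 2505 and 3441 with no filter, 2275 and 3413 with a minimum of 5 FPKM, and 2976 and 3951 with voom on recovered reads. EERs numbered 33 and 159, 28 and 169, and 35 and 237 in that order. At 4-fold or more there were 1761 genes higher, 1872 lower and 129 EERs lower. The median log2 difference of genes was -0.062 with no filter, -0.366 with the stricter filter, 0.115 with equal medians and 0.014 after quantile normalisation. With 1 column left out, 2384 to 2806 genes were higher and 3257 to 3469 lower, and 33 to 52 EERs higher and 148 to 205 lower. With the column number as a replicate block, 2690 genes were higher and 3597 lower, and 38 and 204 EERs. The values gave no sign that equal numbers pair the columns. Deviations correlated at -0.011, -0.052 and -0.008 for equal numbers and at -0.052 to 0.065 for unequal numbers. Of 262 named features, 221 were called and 178 of these under every alternative, or 185 under those that keep 6 columns.

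Counts for some lists moved by over 1.5 times. With a pseudocount of 5, 2 chemoreceptor genes were higher and 1 lower, 30 and 121 F-box and MATH genes, 11 and 20 nuclear hormone receptors, 2 and 4 meiotic genes, 1 and 1 sperm genes, 8 and 2 synaptic genes, 2 and 1 touch and cilium genes, 1 and 32 histones, 64 and 0 neuropeptides and 0 and 0 vitellogenins. With no filter there were 6 and 6 chemoreceptor, 3 and 8 germline fate, 2 and 4 meiotic, 2 and 1 sperm, 2 and 4 touch and cilium and 0 and 0 vitellogenin genes. With a minimum of 5 FPKM there were 2 and 1 chemoreceptor, 29 and 102 F-box and MATH, 1 and 32 histone, 5 and 0 pathogen response, 4 and 0 major sperm protein, 0 and 1 other sperm, 2 and 2 touch and cilium, 58 and 0 neuropeptide and 0 and 0 vitellogenin genes. The replicate block gave 3 and 4 meiotic, 2 and 1 sperm and 2 and 5 touch and cilium genes, and the 12 columns 3 and 4 meiotic and 1 and 0 vitellogenin genes.

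Changes of sign were found only in genes that were not called. With equal medians the log2 difference was 0.259 for pdi-2, 0.025 for mig-6, 0.247 for snb-1, 0.04 for hsp-3, 0.066 for rme-2 and 0.118 for chs-1. After quantile normalisation it was 0.146 for snb-1, -0.439 for emb-9 and -0.16 for let-2. With 1 column left out it ran from -0.05 to 0.357 for cgh-1, -0.259 to 0.313 for pdi-2, -0.364 to 0.18 for snb-1, -0.295 to 0.285 for mec-7, -0.1 to 0.132 for emb-9, -0.083 to 0.372 for let-2 and -0.535 to 0.291 for rme-2. The cause was not tested. The depth of an EER was a median of 10 reads over the 6 columns, and its effect on the calls was not tested.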

Other observations

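Genes were also grouped by the stem of their name, after the values had been seen, for the families with at least 10 tested members. These counts are a description, to be read against 20.1% higher and 26.4% lower over all genes. The fbxb family of F-box genes had 98 of 100 tested members lower, with 77 of the 100 reaching the minimum in columns of 1 stage only. The fbxa family had 30 higher and 13 lower of 103, with 21 of the 103 reaching the minimum in columns of 1 stage only. The sdz genes, named as skn-1 dependent zygotic transcripts, had 26 of 29 lower and 1 higher, and the T-box genes (tbx) 13 of 14 lower. Of these, 21 sdz and 11 tbx genes reached the minimum in columns of 1 stage only, so they could be tested only by differing. The ceh homeobox genes had 30 of 46 lower and 2 higher, with 7 of the 46 reaching the minimum in columns of 1 stage only. Of 26 nuclear pore genes (npp) 19 were lower, of 17 TFIID subunit genes (taf) 11 and of 12 autophagy genes (atg) 9. With equal medians the median log2 difference moved from -1.233 to -0.923 for npp, from -1.418 to -1.108 for taf and from -1.78 to -1.47 for atg. Other families with roles in most cells gave other counts: the eif genes 2 higher and 1 lower of 25, the proteasome genes rpn 1 and 0 of 13, the mitochondrial ribosome genes mrpl 9 and 0 of 41 and mrps 5 and 0 of 29, the proton pump genes vha 7 and 0 of 20, and the sec genes 0 and 2 of 20. With equal medians the median moved from 0.691 to 1.0 for mrpl, from 0.745 to 1.055 for mrps and from 0.742 to 1.052 for vha. The family counts therefore depend on the scaling, and calls by family were not counted under the other scalings.

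Beside the msp, rpl and rps genes, the families with over 80% of tested members higher were the FMRFamide-like peptides (flp, 26 of 30), the aspartyl proteases (asp, 10 of 11), the fipr peptides (13 of 14), the P-glycoprotein transporters (pgp, 9 of 11), the nspg genes (10 of 12, 1 lower), the spig genes (9 of 11, 1 lower) and the nspc peptides (10 of 10, each of which reached the minimum in columns of 1 stage only). Insulin-like peptides (ins) had 15 higher and 3 lower of 22, and transthyretin-related genes (ttr) 28 higher and 5 lower of 47, although ttr-50 fell. Of the tested members, 10 ins, 6 fipr and 4 pgp genes reached the minimum in columns of 1 stage only. The same held for 4 ttr, 3 asp, 3 nspg and 2 spig genes and 1 flp gene. By chromosome, 26.9% of the tested genes of V and 13.7% of those of I were higher, and 29.2% of those of I were lower.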
